A study of Mus musculus with 3 samples.

Results

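The genes described here are 38 integrin subunits and adhesion molecules of mouse plasmacytoid dendritic cells, chosen by name: 25 integrin genes and 13 other adhesion and shedding genes. Of these 38, 36 had a probe set with that symbol, out of 19505 genes measured in all, and Itga1 and Itga10 were not analysed here. The cells were grown from femur and tibia marrow of wild-type male BALB/c mice aged 4 to 5 weeks, with 100 ng/mL Flt3 ligand in the medium over 6 to 9 days, brought to maturity by CpG oligodeoxynucleotides and sorted. The 3 groups were cells given oxymatrine, an alkaloid of Sophora roots, cells given astragaloside IV, a saponin from Astragalus, and control cells, with 1 array each. The protocol gives 12 h with the compound and then 1 h with CCL21, a chemokine that acts through CCR7. It gives no compound doses and does not say whether control cells received CCL21, so compound and CCL21 step cannot be told apart in a comparison with control. Whether 1 array stands for 1 mouse or for pooled marrow is not stated, and no value has a replicate.

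Integrins are surface receptors made of an alpha and a beta subunit, and most are held inactive until signals from inside the cell, ending in talin and kindlin binding to the beta tail, extend them. Leukocytes slow down on selectins through the ligand PSGL-1, are arrested by beta 2 and alpha 4 integrins that bind ICAM and VCAM proteins on the vessel wall, and cross it with the help of PECAM-1, JAM-A and CD99. Inside tissue, dendritic cells can move largely without integrins. The metalloproteases ADAM10 and ADAM17 cut several of these molecules off the cell surface. The study asked how both compounds inhibit migration of these cells. Activation of an integrin changes its shape and not its RNA, and RNA alone was measured.

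All values below are log2 levels of probe sets, each the authors' value from 1 array. A probe set's brightness depends on its probes, so a level is compared between arrays and not between genes. A gene was counted as above background if its average level was at least 5.28, below which lay 95% of 1412 genes for olfactory or vomeronasal receptors, which blood cells normally do not transcribe. The 3 arrays had medians of 5.75 with oxymatrine, 5.74 with astragaloside IV and 5.68 in control over 28846 probe sets. Of 14 measured plasmacytoid dendritic cell markers, 13 were above background and Pacsin1 was not. Their summed signal on the log2 scale was 16.19 with oxymatrine, 16.23 with astragaloside IV and 16.28 in control. Of the 13, 7 were lower and 3 higher than control with oxymatrine, and 7 lower and 0 higher with astragaloside IV. Over all genes above background, 46.0% were lower and 29.7% higher with oxymatrine, and 40.8% and 31.4% with astragaloside IV. All 10 measured markers of monocytes or macrophages were above background too, as were 7 of 9 markers of type 1 conventional dendritic cells, whose defining genes Xcr1 and Clec9a were below it. RNA came from whole sorted populations, so fewer cells of a type and less RNA per cell cannot be told apart.

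Most of the adhesion genes were detected. Above background were 30 of the 36 measured members, or 83.3%, against 54.7% of all genes, and the same number passed in each array taken alone. All 13 members other than integrins passed, with 10 of 15 alpha subunits and 7 of 8 beta subunits. Just above the level lay Itgad, at 5.78 in each array, and just below it lay Itga8, at 5.19 with oxymatrine, 4.97 with astragaloside IV and 4.97 in control. The others below it were the laminin and collagen receptor subunits Itga3, Itga7, Itga2 and Itga11 and the epithelial subunit Itgb4, with levels between 3.91 and 4.59.

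Combined into the 24 heterodimers known from textbooks, both subunits were above background in 16 pairs. These included all 4 pairs of the leukocyte subunit beta 2, all 5 of alpha V and 5 of the 12 pairs of beta 1, of which 2 could not be judged. The pair of Itgad with beta 2 rests on a level of 5.78, below the 99th percentile of receptor genes (5.88). That of alpha V with Itgb6 rests on 5.94. Of the 4 collagen receptor pairs, 2 have a subunit not analysed here (Itga1 and Itga10), and in the other two the alpha subunit was below background, Itga2 at 3.91 and Itga11 at 4.49 in each array.

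**Figure D1:**
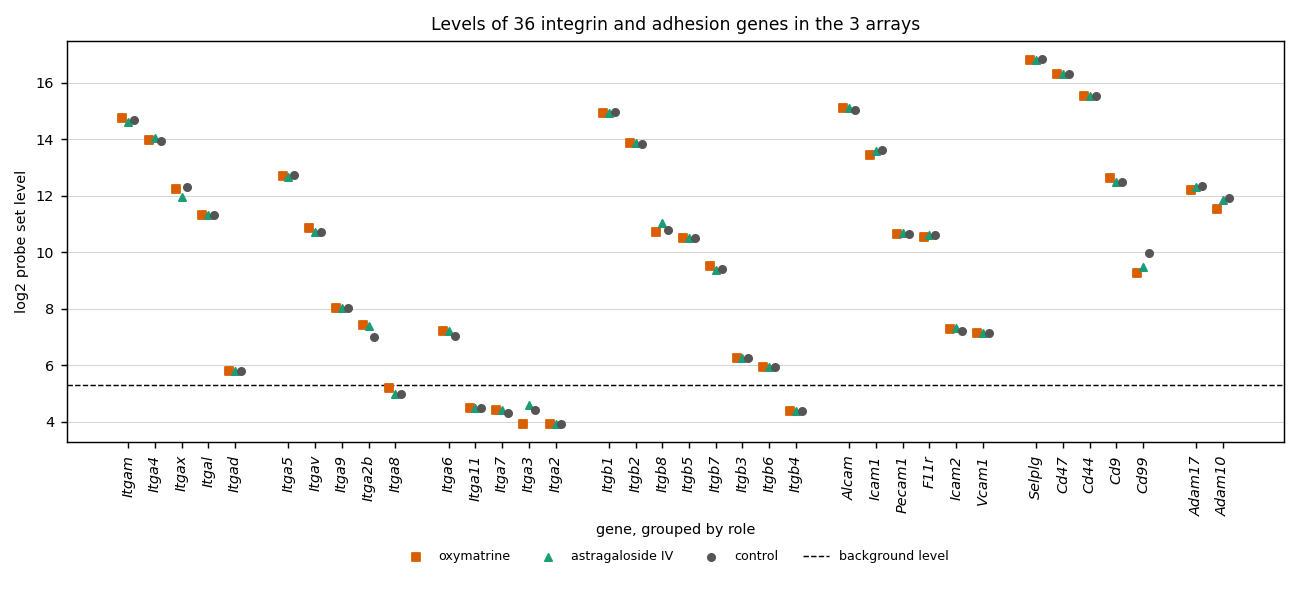
Log2 probe set levels (vertical axis) of the 36 measured genes in the oxymatrine, astragaloside IV and control arrays, 1 point an array, grouped by role along the horizontal axis; the dashed line is the background level of 5.28. The 3 points of most genes lie at nearly the same height, while those of Cd99, Itga2b and, below background, Itga3 lie apart.

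The levels of these genes lay close together in the 3 arrays. Of the 30 above background, 8 had the same value in all 3 arrays to the last deposited digit, against 13.6% of all genes above background, and another 9 stayed within 0.1. The distance between the highest and the lowest array had a median of 0.08 over the members and 0.14 over all genes above background. These medians are not matched for level, and differences are smaller at high levels. The SD of the oxymatrine difference from control was 0.30 over genes of the level of Itgad and 0.11 over genes of the level of Itgam. Of the 30, Cd99 and Itga2b alone differed by 1.3-fold or more between any 2 arrays. That is 2 of 30 members in each comparison with control, where 10.6% of all genes above background reached 1.3-fold with oxymatrine and 7.34% with astragaloside IV.

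With oxymatrine 12 members were below control, 10 above it and 8 exactly on it, and with astragaloside IV 11 were below, 8 above and 11 on it. Both comparisons use the same control array. Over all 10671 genes above background, 46.0% were lower and 29.7% higher with oxymatrine, and 40.8% were lower and 31.4% higher with astragaloside IV. The median difference of the members was 0 in both, as was that of all genes. A difference of 1.5-fold was reached by 1 of 30 members with oxymatrine (Cd99), where 3.31% of all genes above background did, and by 0 of 30 with astragaloside IV, where 2.13% did. These shares are near the background. With 1 array a group no test was possible, and no p-value stands behind any difference here.

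**Figure D2:**
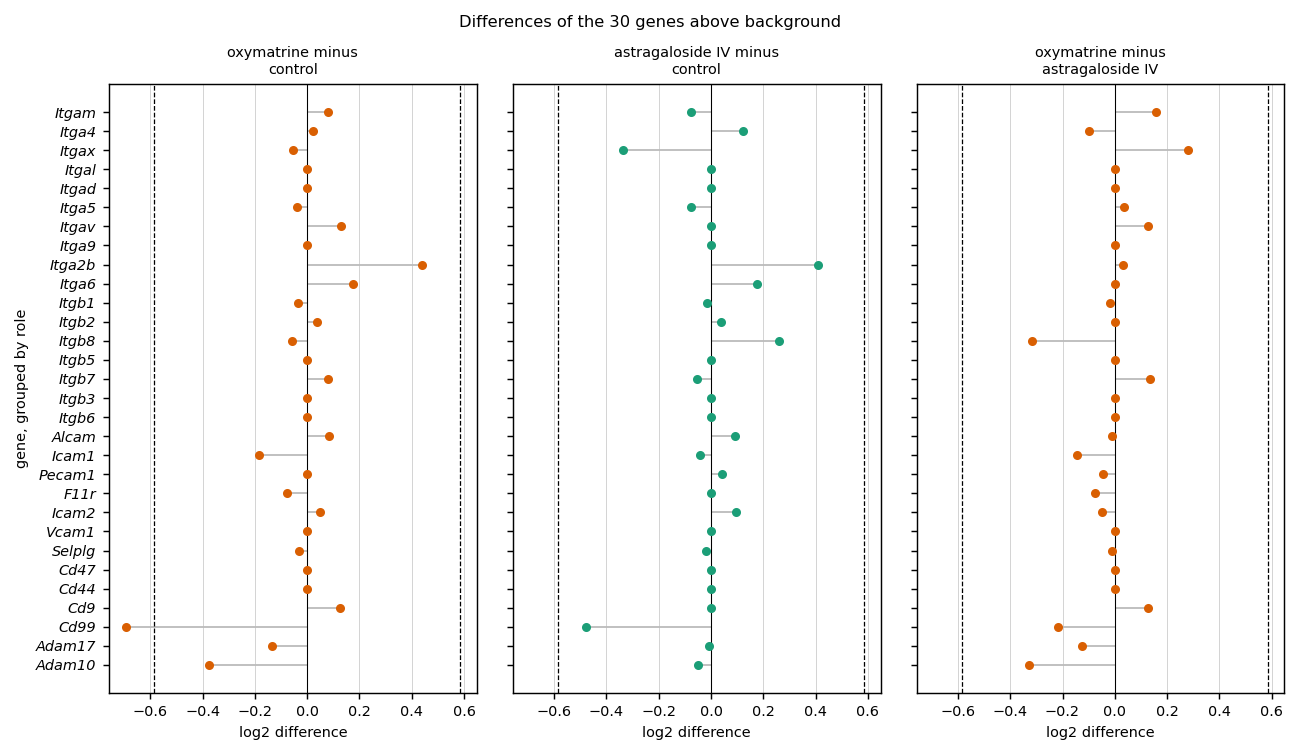
Log2 differences (horizontal axis) of the 30 genes above background for oxymatrine minus control, astragaloside IV minus control and oxymatrine minus astragaloside IV, 1 point a gene; dashed lines mark 1.5-fold. Cd99, at -0.69 with oxymatrine, is the only point beyond a dashed line.

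Cd99 encodes a short, heavily glycosylated surface protein that leukocytes and endothelial cells share and that acts late in the crossing of the vessel wall. Its level was 9.27 with oxymatrine, 9.49 with astragaloside IV and 9.97 in control. Both treated arrays were thus below control, oxymatrine the further. The difference from control was -0.69 with oxymatrine, 1.62-fold lower, and -0.48 with astragaloside IV, 1.39-fold lower. Between the treated arrays it was -0.22, oxymatrine minus astragaloside IV.

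Genes of similar level give a scale for these differences, though not a replicate error. Over the 533 genes of Cd99's level the SD of the difference was 0.20 with oxymatrine and 0.18 with astragaloside IV, so Cd99 lay at -3.46 and -2.68 times that SD. Of those 533, 3 were as low or lower with oxymatrine and 10 with astragaloside IV, Cd99 included in both counts. Cd99l2, its closest relative in the mouse and named here after its values were seen, was at 6.62 with oxymatrine, 6.74 with astragaloside IV and 6.87 in control. Its differences of -0.25 and -0.13 were within the SD at its level.

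T cells carry Cd99 as well. Of 9 measured T or NK cell markers, 3 were above background, while Cd3d, Cd3e, Cd3g, Ncr1, Klrb1c and Eomes were not. Their summed signal on the log2 scale was 8.93 with oxymatrine, 8.84 with astragaloside IV and 9.26 in control. This sum was lower in both treated arrays, as Cd99 was, but the order differed. The sum was lowest with astragaloside IV, and Cd99 was lowest with oxymatrine. Of the 3 markers above background, Il2rb and Cd5 were lower than control with each compound. Il2rb had levels of 6.48 with oxymatrine, 6.32 with astragaloside IV and 7.33 in control. Cd5 stood at 7.73 in both treated arrays against 8.17 in control, and Gzma kept 6.03 throughout. Below background, Cd3d, Cd3e and Cd3g differed from control by -0.05, 0.01 and 0.06 with each compound. Also below it, Eomes and Klrb1c differed by 0.74 and 0.64 with oxymatrine and by 0.27 and 0 with astragaloside IV. Ncr1 differed by -0.09 with oxymatrine and -0.30 with astragaloside IV. The part of T or NK cells in the Cd99 value was not tested.

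Itga2b, the alpha subunit of the platelet fibrinogen receptor and an early marker of blood progenitors, was the highest member against control in both treated arrays. Its level was 7.43 with oxymatrine, 7.40 with astragaloside IV and 6.99 in control. The treated arrays were close to each other and both above control, by 0.44 (1.36-fold) and 0.41 (1.33-fold). In each comparison 26 of the 534 genes of its level were as high or higher, Itga2b included, and the differences were 1.59 and 1.67 times the SD there. Itgb3, its only partner subunit, was at 6.27 in every array.

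Of 7 measured markers of megakaryocytes or platelets, 3 were above background (Pf4, Gp9 and Clec1b), and Ppbp, Gp5, Gp6 and Treml1 were below it. The list's summed signal on the log2 scale was 9.12 with oxymatrine, 9.12 with astragaloside IV and 9.15 in control. Pf4, at 8.54 in both treated arrays and 8.61 in control, makes up most of that sum. Clec1b was at 6.36 in both treated arrays and 6.09 in control, 0.26 higher in both, while Gp9 was at 5.48 in each array. The part of these cells in the Itga2b value was not tested.

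The promoters of 2 genes are shown, that of Itga2b, whose level differed from control in both treated arrays, and that of Itgam, a myeloid integrin gene whose level did not differ by 1.3-fold in any comparison. Of the 38 members, 26 had an entry in the RefSeq promoter table (GRCm38.p6), and Cd99 had none. Each line gives the 250 bases before the start site, 5′ to 3′ on the strand of the gene, which is minus for Itga2b (chr11:102469884-102470133) and plus for Itgam (chr7:128062390-128062639). Capitals mark matches, on either strand, to GAGGAA, an ETS family core that PU.1 also reads, to GGGCGG of Sp1, to AGATAA, which GATA-type factors read, and to TATAAA of the core promoter, with no overlap between matches here.
Itga2b: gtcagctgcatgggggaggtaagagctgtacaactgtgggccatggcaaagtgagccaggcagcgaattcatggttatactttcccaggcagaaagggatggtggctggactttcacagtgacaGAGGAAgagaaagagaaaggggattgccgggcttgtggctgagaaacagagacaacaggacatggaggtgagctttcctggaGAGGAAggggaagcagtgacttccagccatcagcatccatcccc
Itgam: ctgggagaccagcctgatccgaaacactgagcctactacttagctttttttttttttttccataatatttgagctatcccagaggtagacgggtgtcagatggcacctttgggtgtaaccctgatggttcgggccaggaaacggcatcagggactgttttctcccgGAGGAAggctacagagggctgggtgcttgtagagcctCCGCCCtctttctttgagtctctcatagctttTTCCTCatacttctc

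Both windows hold the GAGGAA letters at 2 places, beginning at -126 and -44 in Itga2b and at -84 and -15 in Itgam, counted from the start site. Itgam also has 1 match to GGGCGG, at -47. Neither window has the letters AGATAA or TATAAA. Among 32851 RefSeq promoter windows of this length, 23.3% hold GAGGAA on either strand, 32.7% hold GGGCGG, 9.99% hold AGATAA and 12.4% hold TATAAA. A match of letters describes the sequence and does not show that a factor binds.

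The beta 2 integrins are the leukocyte's own family, and their common subunit Itgb2 was at 13.88 with oxymatrine, 13.88 with astragaloside IV and 13.85 in control. Itgal, whose product pairs with it as LFA-1, the receptor for ICAM-1, was at 11.34 in each array. Itgam, the alpha subunit of Mac-1, was at 14.77 with oxymatrine, 14.61 with astragaloside IV and 14.69 in control. These 3 genes stayed within 0.16 across the arrays.

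Itgax, which encodes CD11c, differed more. Its level was 12.24 with oxymatrine, 11.96 with astragaloside IV and 12.30 in control, so the astragaloside IV array stood below the other two. Astragaloside IV was lower than control by a difference of -0.34 (1.26-fold), -2.57 times the SD there, and 11 of the 533 genes in its level range were as low or lower. With oxymatrine the difference was -0.06. The summed signal of the monocyte and macrophage markers, cells that also carry CD11c and Mac-1, was 15.96 with oxymatrine, 15.96 with astragaloside IV and 15.97 in control on the log2 scale. That of the neutrophil markers, of which 3 of 11 were above background, was 13.24, 12.99 and 13.48 in the same order, lowest with astragaloside IV as Itgax was. Lcn2, at 12.94, 12.71 and 13.21, makes up most of that sum. Csf3r was at 10.49, 10.11 and 10.59 and Mmp8 at 7.94, 7.68 and 7.94. The other measured neutrophil markers, S100a8, S100a9 and Mpo among them, were below background. The sum of type 1 conventional dendritic cell markers, mostly that of Irf8, was also lowest with astragaloside IV, at 14.48, 14.45 and 14.53 in that order. For type 2 conventional dendritic cell markers, 4 of 7 above background, it was 14.96, 14.98 and 14.97, highest with astragaloside IV. The part of these markers in the Itgax value was not tested.

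Itga4, the alpha subunit of VLA-4 (with beta 1) and of the gut-homing receptor for MAdCAM-1 (with beta 7), was at 13.96 with oxymatrine, 14.07 with astragaloside IV and 13.94 in control. Its partner Itgb1 was at 14.93, 14.94 and 14.96 in turn, and Itgb7 at 9.50, 9.36 and 9.42. No value of these 3 genes was more than 0.14 from another of the same gene. Itga5, which binds fibronectin with beta 1, was at 12.70, 12.66 and 12.74. The laminin receptor subunit Itga6 was at 7.19 in both treated arrays and 7.02 in control, 0.18 higher in both, and Itga9, a tenascin receptor subunit, at 8.02 in all 3 arrays.

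Alpha V integrins recognise the RGD motif of matrix proteins, and those with beta 6 and beta 8 release active TGF-beta from its latent form. Itgav was at 10.84 with oxymatrine, 10.72 with astragaloside IV and 10.72 in control. Of its partners, Itgb5 was at 10.52 and Itgb6 at 5.94 in each array. Itgb8 was at 10.73 with oxymatrine, 11.05 with astragaloside IV and 10.79 in control, so here the astragaloside IV array was above the other two. The difference from control was 0.26 with astragaloside IV, 1.69 times the SD at its level, and -0.06 with oxymatrine.

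The immunoglobulin-family members showed small differences. Icam1, the ligand of LFA-1 that inflammatory signals induce, was at 13.45 with oxymatrine, 13.60 with astragaloside IV and 13.64 in control. Icam2, a constitutive ligand of LFA-1, was at 7.27, 7.32 and 7.22 in turn, and Vcam1, the ligand of VLA-4, at 7.15 in each array. Icam1 differed from control by -0.18 with oxymatrine and was the furthest from control of this family. The homophilic junction molecule gene Pecam1 was at 10.64 with oxymatrine, 10.69 with astragaloside IV and 10.64 in control, and F11r, the gene for JAM-A, at 10.54, 10.61 and 10.61. Alcam, which encodes the ligand of CD6, was at 15.12, 15.13 and 15.03, slightly higher in both treated arrays.

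Selplg encodes PSGL-1, the selectin ligand on which leukocytes roll, and was at 16.82 with oxymatrine, 16.83 with astragaloside IV and 16.85 in control. Cd44, the hyaluronan receptor, was at 15.54 and Cd47, which restrains phagocytosis through SIRP-alpha and binds thrombospondin, at 16.31 in every array. These 3 genes did not differ by more than 0.03 in any comparison. The tetraspanin gene Cd9, whose product associates with integrins, was at 12.63 with oxymatrine, 12.51 with astragaloside IV and 12.51 in control.

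Among the sheddases, Adam10 lay just short of 1.3-fold from control with oxymatrine. Its level was 11.54 with oxymatrine, 11.87 with astragaloside IV and 11.92 in control, and the oxymatrine array stood below the other two. The difference from control was -0.38 with oxymatrine, or -2.34 times the SD at its level, where 16 of 534 genes were as low or lower, and -0.05 with astragaloside IV. Adam17, the TNF-alpha converting enzyme, was at 12.20 with oxymatrine, 12.33 with astragaloside IV and 12.34 in control. It too was lowest with oxymatrine, by a difference from control of -0.14.

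**Figure D3:**
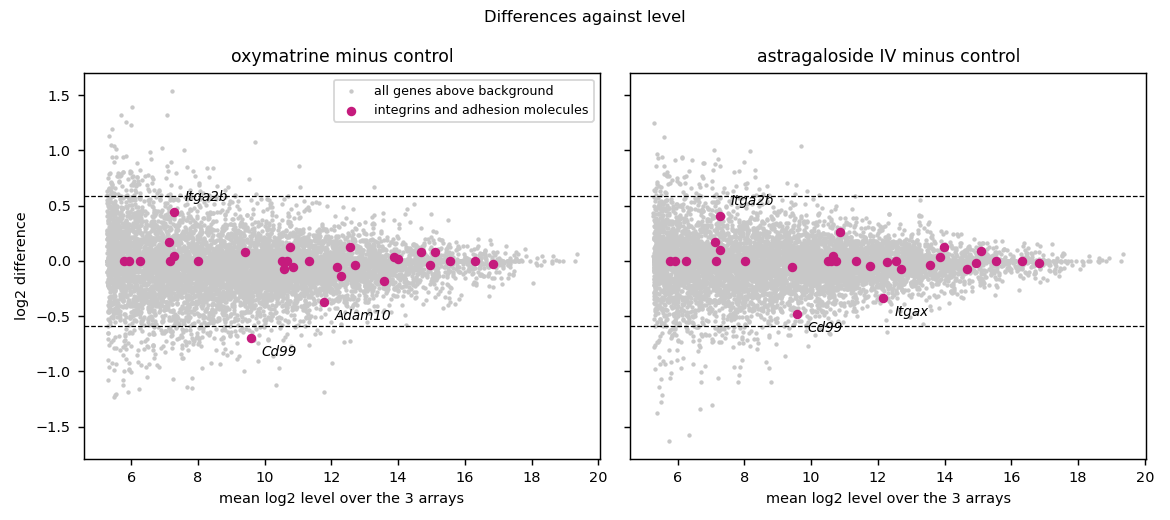
Log2 difference from control (vertical axis) against the mean log2 level over the 3 arrays (horizontal axis) for all 10671 genes above background in grey and the 30 members in colour, with oxymatrine on the left and astragaloside IV on the right; dashed lines mark 1.5-fold. Most members lie in the dense middle of the grey cloud, with Cd99 at its lower edge in both panels.

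Between oxymatrine and astragaloside IV, all 30 members differed by less than 1.3-fold, where 8.33% of all genes above background reached 1.3-fold and 2.58% reached 1.5-fold. Oxymatrine was lower than astragaloside IV in 12, higher in 7 and equal in 11, and over all genes it was lower in 40.7% and higher in 32.5%. The members furthest apart were Adam10 at -0.33, Itgb8 at -0.32 and Itgax at 0.28, each oxymatrine minus astragaloside IV. In units of the SD at the gene's level these were -2.30, -2.04 and 2.22. Below background, Itga3 was at 3.91 with oxymatrine, 4.59 with astragaloside IV and 4.41 in control, and no difference is read from it.

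Other genes of metalloproteolysis came from a list of 17 proteases, regulators and inhibitors, of which 7 were above background. Of these, 6 were lower and 1 higher than control with each compound, where 46.0% of all genes above background were lower with oxymatrine and 40.8% with astragaloside IV, and both counts use the same control array. Their differences had a median of -0.34 with oxymatrine and -0.20 with astragaloside IV, against 0 for all genes in both. Mmp14, a membrane-bound collagenase that migrating cells use, was at 11.77 with oxymatrine, 12.01 with astragaloside IV and 12.40 in control. Its differences were -0.63 and -0.38, -4.02 and -2.94 times the SD at its level, and with oxymatrine it passed 1.5-fold.

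Rhbdf2 encodes iRhom2, which carries ADAM17 to the surface, and was at 10.64 with oxymatrine, 11.01 with astragaloside IV and 11.02 in control. Reck, a membrane-anchored inhibitor of metalloproteases, was at 5.48 in both treated arrays, near background, and 6.02 in control. The inhibitor gene Timp2 was at 7.95 in both treated arrays and 8.29 in control. Proteases and their inhibitors were thus both among the lower genes.

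Of the genes that switch integrins on or signal from them, 25 were above background. With oxymatrine, 14 of these lay below control, 3 above it and 8 on it (median -0.01), and with astragaloside IV 9 lay below, 8 above and 8 on it (median 0). Over all genes above background 46.0% lay below control with oxymatrine and 40.8% with astragaloside IV. The oxymatrine split turned with the scaling, to 8 lower and 17 higher with lowess centring and 10 lower and 15 higher with quantile normalisation. Tln1 and Fermt3, the talin and leukocyte kindlin genes, named here for that role after their values were seen, were at 15.88 in each array, and at 13.00 in both treated arrays against 13.12 in control. Ptk2b encodes the adhesion kinase Pyk2 and was the furthest below control with both compounds, at 9.15 with oxymatrine, 9.12 with astragaloside IV and 9.66 in control. The differences of -0.51 and -0.55 were -2.54 and -3.08 times the SD at its level.

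Flna, an actin cross-linker that competes with talin for the beta tail, was at 15.23 with oxymatrine, 14.92 with astragaloside IV and 14.81 in control. It was higher by 0.42 with oxymatrine, 3.73 times the SD at its level, and by 0.11 with astragaloside IV. Parvg, the leukocyte parvin, differed from control by -0.32 and -0.12, and the actinin gene Actn1 by -0.26 and 0.05. None of the 25 passed 1.5-fold in either comparison, where 3.31% of all genes above background did with oxymatrine and 2.13% with astragaloside IV.

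Among 22 further adhesion molecules above background, 11 were lower and 7 higher with oxymatrine, where 46.0% and 29.7% of all genes above background were. With astragaloside IV 10 were lower and 6 higher, where 40.8% and 31.4% of all genes above background were. Itgae encodes the alpha subunit that pairs with beta 7 and marks type 1 conventional dendritic cells. Its level was 6.01 with oxymatrine, 5.77 with astragaloside IV and 6.50 in control. With astragaloside IV it passed 1.5-fold, at a value near background. Among the other type 1 markers, Xcr1 and Clec9a were below background. The type 1 list had 7 markers above background, Itgae included. With oxymatrine 5 of these were lower and 1 higher than control, and with astragaloside IV 4 were lower and 2 higher. The lower shares of these 7 genes were thus 71.4% and 57.1%, where 46.0% and 40.8% of all genes above background were lower. Cd8a was at 7.80 in both treated arrays and 8.12 in control, lower in both as Itgae was. Tlr3 was at 9.29 with oxymatrine, 9.72 with astragaloside IV and 9.19 in control, higher in both. The list's summed signal, 14.48, 14.45 and 14.53 in the same order of arrays, is mostly that of Irf8 (14.19, 14.09 and 14.20), which plasmacytoid dendritic cells express as well, and the part of type 1 cells in the Itgae value was not tested. Cd34, a sialomucin of progenitors, was at 6.18, 6.80 and 6.61, Cd93 at 9.48, 9.05 and 9.45, and the sialic acid receptor gene Cd33 at 6.87, 6.52 and 6.51, in the same order of arrays. Each of these 3 genes had 1 treated array away from the other and from control.

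Tetraspanins, which gather integrins into membrane domains, had 15 of 19 genes above background. Of these, 7 were lower and 6 higher with oxymatrine, where 46.0% and 29.7% of all genes above background were. With astragaloside IV 6 were lower and 4 higher, where 40.8% and 31.4% of all genes above background were. Cd37, a tetraspanin of leukocytes, was at 12.55 with oxymatrine, 12.67 with astragaloside IV and 12.93 in control, and its differences of -0.38 and -0.26 were -2.53 and -2.17 times the SD at its level. Tspan17 and Tspan5, which belong to the group that escorts ADAM10, differed from control by 0.35 and -0.28 with oxymatrine. With astragaloside IV the differences were 0.11 and -0.16. The oxymatrine differences were 1.28 and -1.02 times the SD at their levels. Tspan32 was higher by 0.19 and 0.27 with oxymatrine and astragaloside IV, near background.

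Of 20 measured matrix ligands, 9 were above background. None of these 9 differed by 1.3-fold from control, where 10.6% of all genes above background did with oxymatrine and 7.34% with astragaloside IV. Differences with astragaloside IV were 0.28 for Col1a1, -0.27 for Nid1 and 0.26 for Edil3, where oxymatrine gave 0, -0.01 and 0. The laminin gene Lamc1 differed by 0.17 with astragaloside IV and by -0.28 with oxymatrine, where it was at 5.13 and so below background. Of the 78 genes above background in the 5 lists, 1 passed 1.5-fold against control with oxymatrine (Mmp14) and 1 with astragaloside IV (Itgae), where 3.31% and 2.13% of all genes above background did.

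**Figure D4:**
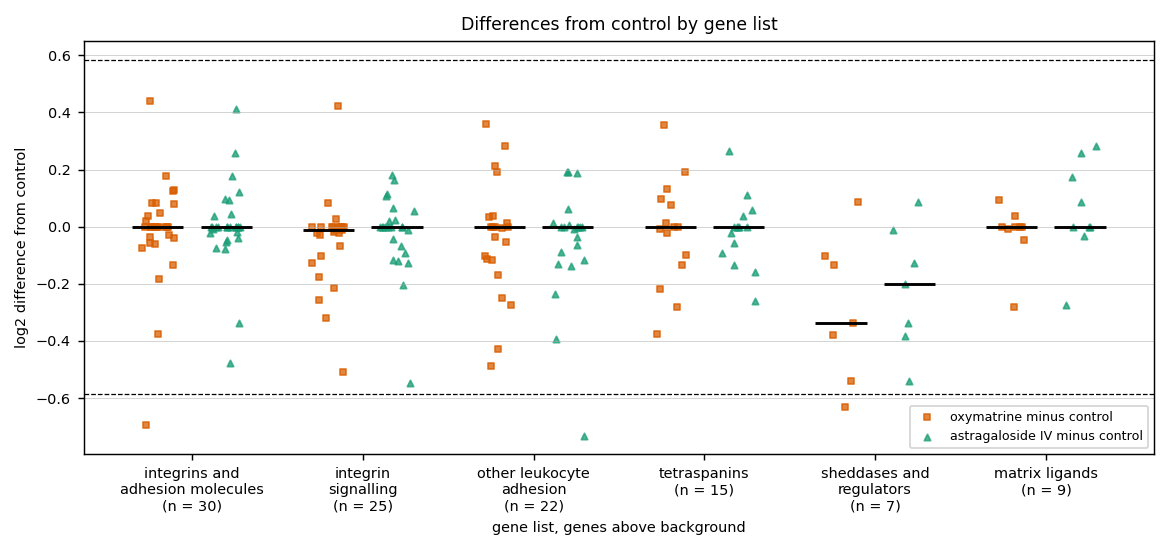
Log2 differences from control (vertical axis) for the 30 members and for the genes above background of 5 lists of related genes (horizontal axis), 1 point a gene, oxymatrine on the left and astragaloside IV on the right of each pair; bars are medians and dashed lines mark 1.5-fold. The medians lie at or near 0 except for the 7 genes of metalloproteolysis, at -0.34 and -0.20.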

How the data were processed

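The authors deposited RMA values (background subtraction, quantile normalisation, median polish) on the log2 scale, per the submitters' processing notes, with 1 value for each probe set in an array. Software, version and build: not given in the sources used here. Their range, 1.78 to 19.7, gave the log base. Labelled cRNA came from a whole-transcript kit, per the labels' protocols.

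Probe sets were named through the platform annotation (19572 with 1 symbol, all found in RefSeq by Entrez identifier), and the brightest was kept for the 55 genes with several. Comparisons are differences of 2 values, counted at 1.5-fold. With 1 array a group there is no test and no error. SDs at a gene's level come from 20 bins of equal size over the 10671 genes above background. All members are named, and from each related list up to 4 genes with the largest difference from control. Members, lists and thresholds were chosen with earlier results of these data known. Alternatives were other level filters, thresholds of 1.3-fold and 2-fold, median centring, quantile normalisation, lowess (fraction 0.3) and the mean over probe sets. The functions were tested on simulated data. Python 3.11.15, numpy 2.4.6, pandas 2.3.3, statsmodels 0.14.6 and matplotlib 3.10.9 were used.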

Additional observations from a re-analysis of the deposited data

How the results depend on the processing

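The number of members above background was 30, 29 with the 99th percentile of receptor genes (5.88) and 36 with no filter. The count of members 1.5-fold from control with oxymatrine, 1, became 2 at 1.3-fold and 0 at 2-fold, and stayed at 1 under every other alternative run. With astragaloside IV it was 0, and 2 at 1.3-fold. Between the treated arrays it was 0, and 1 with no filter on low values (Itga3, below background). Over the 5 related lists the count with oxymatrine, 1, became 7 at 1.3-fold, 0 at 2-fold, and 2 after centring on the median, with quantile normalisation and with no filter. With astragaloside IV the count of 1 became 5 at 1.3-fold, 0 at 2-fold, 3 after centring, 2 with quantile normalisation and 2 with no filter. Between the treated arrays the count of 1 (Cd34) became 3 at 1.3-fold, 0 at 2-fold and 3 with no filter. The cause was not tested where the threshold or filter does not itself give it.

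Centring moved the median of all genes above background by -0.06 against control with both compounds and put exact ties on the lower side, so that 23 members were lower and 7 higher with oxymatrine and 24 lower and 6 higher with astragaloside IV. Quantile normalisation gave 14 lower and 16 higher, and 16 lower and 14 higher, so the split of lower against higher members has no fixed direction. Nor has that of the 25 integrin signalling genes, with 23 lower and 2 higher with oxymatrine after centring and 8 lower and 17 higher with lowess. Over the scaling alternatives and the mean over probe sets, Cd99 differed from control by -0.76 to -0.66 with oxymatrine and by -0.53 to -0.46 with astragaloside IV, and Itga2b by 0.38 to 0.46 and by 0.35 to 0.42. Adam10 ranged from -0.44 to -0.34 with oxymatrine, and Itgax from -0.39 to -0.32 with astragaloside IV. After centring, Adam10 (-0.44) and Itgax (-0.39) passed 1.3-fold in those comparisons, and Itga2b (0.38 and 0.35) no longer did. No paired analysis was possible because each group has 1 array. With arrays, the number of arrays and the signal over background limit precision.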
